A study of Mus musculus with 2 samples.

Results

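Binding of HLF (hepatic leukemia factor), a PAR bZIP transcription factor, was examined at the genes of 6 signalling proteins, namely Gab1, Gab2, Gab3, Grb2, Ptpn6 and Ptpn11, in mouse LSK cells (lineage-negative, Sca-1+ and c-Kit+ stem and progenitor cells of wild-type mice). In the FLAG-HLF arm, 80000 such cells were infected with a pMX retrovirus carrying a FLAG-tagged Hlf together with GFP. The GFP-ctrl arm received a pMX virus with GFP alone. Both arms were kept for 5 days with SCF at 50 ng/ml, IL-7 and Flt3L at 10 ng/ml each and IL-3 at 5 ng/ml, and chromatin was then precipitated with an antibody to FLAG. Each arm was 1 library, so no value has a replicate check, and only the FLAG-HLF peak list was analysed here. HLF came from a virus in these cells, and neither its level, nor the expression of any gene, nor any marker of the cells after culture was measured in the data used here.

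The list held 3153 peaks, each 400 bases wide, with positions in mm10 and with no height or significance. Read depth is therefore unknown. A peak was counted at a gene when its centre lay inside the gene or within 100 kb of an end, and 9 of the 3153 peaks were counted at the 6 genes: 5 at Gab2, 3 at Ptpn11 and 1 at Ptpn6. Thus 3 of the 6 genes (50%) had a peak, against 36.3% of the 21900 coding genes, and 1 of the 6 had a peak inside, against 6.82% of coding genes. The genes were chosen by peak positions in this same list (Gab2 for its 5 nearest peaks, Ptpn11 for the peak on line 3 of the file), so all counts below are descriptions and no test was made. The peak outside a gene that was farthest within the limit lay 61.6 kb from Ptpn11. The closest ones beyond it lay 107.6 kb from Grb2 and 120.9 kb from Ptpn11.

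GAB proteins are docking proteins below cytokine and growth factor receptors. They reach the receptors largely through the small adaptor GRB2, and once phosphorylated on tyrosine they recruit phosphoinositide 3-kinase and the phosphatase SHP-2, which is encoded by Ptpn11 and promotes signalling through RAS and the MAP kinases. The related phosphatase SHP-1, encoded by Ptpn6, mostly dampens signalling in blood cells. KIT and the receptors for FLT3 ligand and IL-3, whose ligands were in the culture, are among the receptors that use these proteins.

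None of the 9 peaks overlapped a promoter window, which spans 250 bases before to 50 bases after a transcription start in RefSeq GRCm38.p6. With all 3153 peaks of the list, 227 of the 32851 windows lay under a peak. Such overlaps were thus few in the whole list, and their absence here is not read as a trait of these genes. Of the 6 genes, 4 had such windows in the table (Gab1, Grb2, Ptpn6 and Ptpn11). Gab2, with 5 of the 9 peaks, had no window, so an overlap with a start of Gab2 could not be seen. Grb2 is on the minus strand, and its 2 starts in the table (chr11:115699928 and chr11:115699534) lie inside the gene. No window covered the upper end of Grb2, at chr11:115708597. The 4 sequences shown are the window of Ptpn11, which had no peak, and 3 windows that lay under a peak in or near the loci described here: those of Rph3a, the coding gene next to Ptpn11, of Sumo2, near Grb2, and of Irs2, a docking protein gene of the pathway list described further on. They are given 5′ to 3′ on the strand of the gene, and capitals mark a match to the core of the site bound by PAR bZIP factors, TTANGTAA, searched on both strands.
Ptpn11, chr5:121191348-121191647, minus strand: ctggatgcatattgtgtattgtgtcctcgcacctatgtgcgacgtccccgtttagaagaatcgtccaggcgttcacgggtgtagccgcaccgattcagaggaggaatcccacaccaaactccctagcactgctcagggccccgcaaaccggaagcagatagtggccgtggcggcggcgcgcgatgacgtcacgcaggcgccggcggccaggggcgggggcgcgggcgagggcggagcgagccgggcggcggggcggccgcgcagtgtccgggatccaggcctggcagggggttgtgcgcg
Rph3a, chr5:121009489-121009788, minus strand: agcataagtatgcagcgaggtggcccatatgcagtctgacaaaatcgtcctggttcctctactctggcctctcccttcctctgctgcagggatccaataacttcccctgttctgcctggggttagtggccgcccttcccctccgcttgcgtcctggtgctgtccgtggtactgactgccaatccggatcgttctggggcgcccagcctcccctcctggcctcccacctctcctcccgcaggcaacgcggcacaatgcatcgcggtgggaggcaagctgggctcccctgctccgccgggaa
Sumo2, chr11:115536181-115536480, minus strand: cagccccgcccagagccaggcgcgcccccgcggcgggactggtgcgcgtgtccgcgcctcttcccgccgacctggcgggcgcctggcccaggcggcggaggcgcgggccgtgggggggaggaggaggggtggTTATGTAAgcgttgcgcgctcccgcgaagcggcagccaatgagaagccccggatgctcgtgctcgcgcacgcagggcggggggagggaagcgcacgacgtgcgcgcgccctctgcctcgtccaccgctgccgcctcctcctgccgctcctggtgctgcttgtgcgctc
Irs2, chr8:11008880-11009179, minus strand: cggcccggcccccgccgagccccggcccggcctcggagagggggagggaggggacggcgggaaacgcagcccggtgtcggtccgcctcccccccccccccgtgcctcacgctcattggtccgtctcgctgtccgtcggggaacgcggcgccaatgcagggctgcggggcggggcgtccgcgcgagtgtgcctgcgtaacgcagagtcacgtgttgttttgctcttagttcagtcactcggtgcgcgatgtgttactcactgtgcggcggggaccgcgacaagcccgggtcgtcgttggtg

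The Sumo2 window held the word TTATGTAA 118 bases before the start (chr11:115536341-115536348). It lay within the peak, 105 bases from its centre. The windows of Ptpn11, Rph3a and Irs2 shown held no match to this core, and neither did those of Gab1, Grb2 and Ptpn6. The core of the C/EBP site, TTGCNNAA, which shares no 8-base word with the PAR bZIP core, matched once in a Grb2 window, 104 bases before that start, and once in another Rph3a window, not shown, at chr5:121008464-121008471. Neither match was under a peak. The left part of the site of the repressor REST, TTCAGCACC, matched in none of these windows. Over all 32851 windows of the table, 2.32% held the PAR bZIP core, 10.8% the C/EBP core and 0.371% the REST word. Of the 227 windows that lay under any peak of the list, 8.81% held the PAR bZIP core, against 2.28% of the other windows, 30.4% against 10.7% held the C/EBP core, and 2.2% against 0.359% held the REST word. A match was counted anywhere in a window, and a peak can cover only part of a window, so a match need not lie within the peak. Several windows can belong to 1 gene and base composition was not matched, so these shares are descriptions.

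Gab2, a docking protein gene active in many blood cells, was the only one of the 6 genes with a peak inside it. The gene covers 227.2 kb (chr7:97081751-97308951), and 4 peaks lay near its middle. They formed 2 close pairs. The first pair was centred 92.7 and 97.8 kb above the lower end, the end with the smaller coordinate (chr7:97174209-97174608 and chr7:97179317-97179716), 5.11 kb apart. The second pair lay 128.4 and 129.6 kb above that end (chr7:97209993-97210392 and chr7:97211104-97211503), 1.11 kb apart. As shares of the gene's length these places were 40.8%, 43.0%, 56.5% and 57.0%, so no inside peak came nearer than 92.7 kb to an end. The table used here gives no exons, and introns were not told apart.

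Another peak lay 6.51 kb outside the lower end of Gab2 (chr7:97075046-97075445), in no coding gene. It was in the 17.0 kb between Gab2 and Nars2, which encodes a mitochondrial asparaginyl-tRNA synthetase. On the other side, the deubiquitinase gene Usp35 lies 0.452 kb beyond the upper end of Gab2. The next peak on that side was 532.5 kb away, inside the kinase gene Pak1. All 5 peaks had an end of Gab2 as their nearest coding gene end, and also as the nearest end of any gene in the table, noncoding genes included. The 4 inside peaks passed the 100 kb limit only narrowly in this assignment, at 92.7 to 98.8 kb from an end, and with a limit of 50 kb the count of nearest peaks was 1. The lines of the 5 peaks in the file were 383, 1061, 1161, 1608 and 2850, spread through the list.

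**Figure D1:**
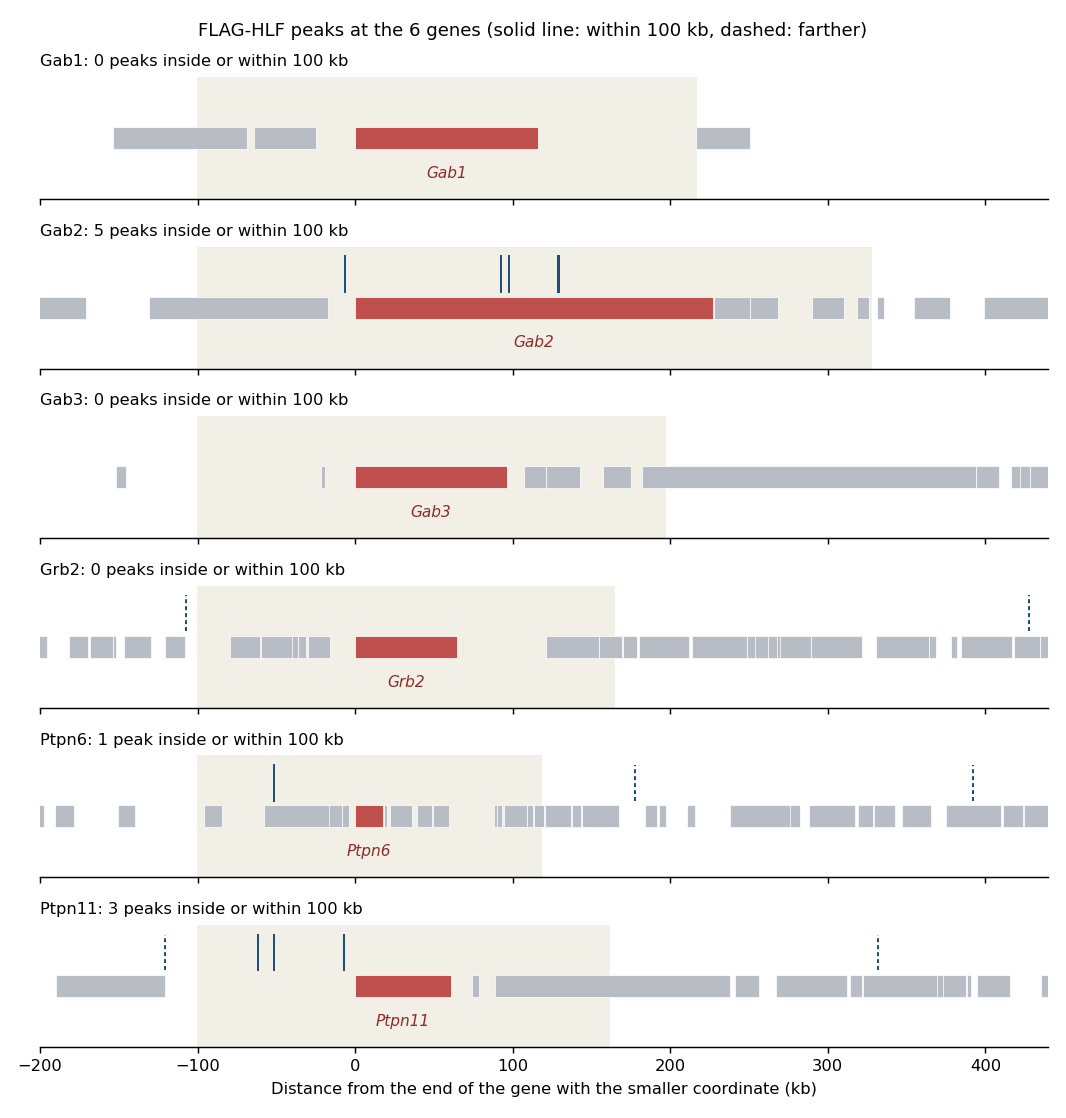
Peaks around the 6 genes, with distance in kb from the gene end with the smaller coordinate on the x axis, the named gene in red, other coding genes in grey and the range within 100 kb shaded. Gab2 has 4 peaks near its middle and 1 just outside, Ptpn11 has 3 on the side of its lower end, Ptpn6 has 1, and Gab1, Gab3 and Grb2 have 0.

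Few genes held as many peaks. Among the 21900 coding genes, 6 (0.0274%) had 4 or more peaks inside, Gab2 included, and the most was 5. Of the 829 coding genes at least as long as Gab2, 4 (0.483%) had 4 or more, while 610 had 0, 159 had 1, 42 had 2 and 14 had 3. The body of Gab2 held 17.6 peaks per Mb, and these 829 genes together held 0.775 per Mb. Gab2 was picked for its peaks, so its place in this ranking was fixed by the choice.

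The coding genes most like Gab2, by at least 4 inside peaks and then by gene length, were Sgms1, Arid1b, Cacnb2, Lcp1 and M1ap. Sgms1, a sphingomyelin synthase gene of 267.2 kb, held 5 peaks spread over 160.6 kb. Arid1b, a chromatin remodelling subunit gene of 353.4 kb, held 4 over 157.7 kb. Cacnb2, a calcium channel subunit gene of 385.0 kb, held 4 over 103.9 kb. Lcp1, the gene of the leukocyte actin-bundling protein L-plastin, had 4 over 47.3 kb of its 99.7 kb, and M1ap, a gene named for meiosis, had 5 over 45.9 kb of its 83.4 kb. The 4 peaks inside Gab2 spanned 36.9 kb. The closest 4 peaks inside M1ap spanned less, 20.2 kb, and those of the other 4 genes spanned 47.3 to 157.7 kb. Of the 3093 sets of 4 consecutive peaks in the list, 5 (0.162%) spanned no more than the 36.9 kb at Gab2, the Gab2 set included. Of the 3133 pairs of neighbouring peaks, 30 (0.958%) were as close as the closer Gab2 pair and 123 (3.93%) as close as the other. Because Gab2 was picked for its peaks, these shares too are descriptions.

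**Figure D2:**
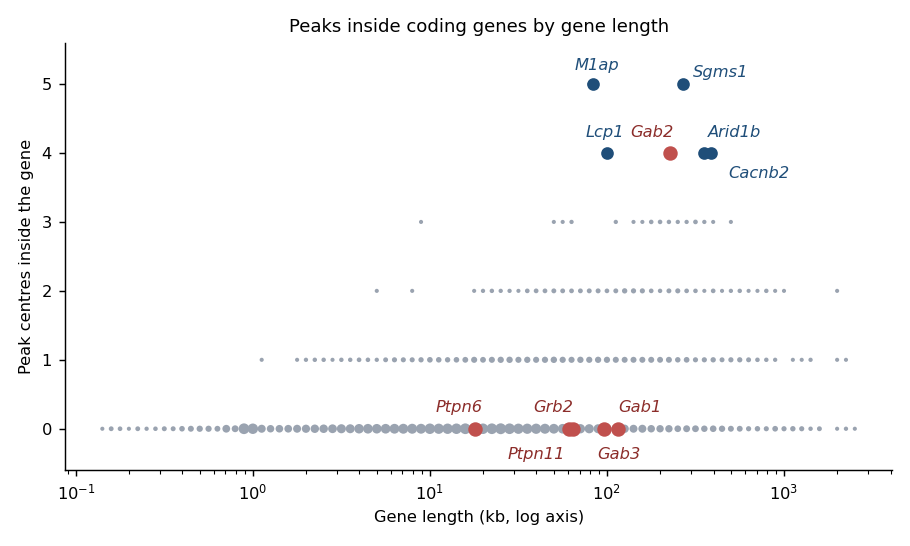
Number of peak centres inside each coding gene against gene length in kb (log axis), with grey dots that grow with the number of genes at that point, the 6 genes in red and the 5 genes most like Gab2 in blue. Gab2 stands among the 6 genes with 4 or 5 peaks, and the other genes in red are at 0.

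Ptpn11, the SHP-2 gene (chr5:121130533-121191397, 60.9 kb), had 3 peaks within 100 kb and 0 inside. All 3 lay below its lower end. The gene is on the minus strand in the promoter table, so this is the side away from its start, and the closest peak to the start was 67.9 kb from it. The closest peak was 7.00 kb outside (chr5:121123338-121123737). The next was 51.8 kb outside (chr5:121078537-121078936), and this is the peak on line 3 of the file. The last was 61.6 kb outside (chr5:121068700-121069099), 9.84 kb from the peak on line 3.

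These peaks lay in the 120.4 kb between Ptpn11 and Rph3a, which encodes the synaptic vesicle protein rabphilin 3A, with no coding gene in between. Which gene a peak was given to depended on the rule. By nearest gene end, the peaks at 7.00 and 51.8 kb went to Ptpn11 and the one at 61.6 kb to Rph3a, whose end was 58.8 kb from it. By nearest start, only the peak at 7.00 kb went to Ptpn11. The peak on line 3 was 68.6 kb from an Rph3a start and 112.7 kb from the Ptpn11 start. A further peak, 120.9 kb from Ptpn11, lay inside Rph3a and covered all 300 bases of the Rph3a window shown. Its centre was 0.097 kb from that start (chr5:121009436-121009835).

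The 4 peaks from the Rph3a start to the end of Ptpn11 spanned 113.9 kb. Sets of 4 consecutive peaks that short made up 2.17% of those in the list. The 4 peaks were taken around the chosen gene, with one beyond the 100 kb limit, so this share is a description. These peaks stood on lines 3, 219, 293 and 1585. The order of lines is not explained in the sources used here. Above Ptpn11, on the side of its start, the closest peak was 270.9 kb away, inside Tmem116.

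Ptpn6, the SHP-1 gene (chr6:124720707-124738709, 18.0 kb), had 1 peak within 100 kb, 51.2 kb below its lower end and 69.2 kb from its start (chr6:124669308-124669707). That peak lay inside Lpcat3, which encodes a lysophospholipid acyltransferase, and its nearest coding gene end was that of Lpcat3, 6.41 kb away. Emg1 and Phb2 lie between it and Ptpn6. No peak was therefore nearest to Ptpn6, and this locus is dense, with 13 other coding genes within 100 kb. On the other side the closest peak was 159.9 kb away, 5.73 kb from an end of Lag3.

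Grb2, the adaptor gene (chr11:115644045-115708597, 64.6 kb), had 0 peaks within 100 kb. The closest was 107.6 kb below it, just past the limit, and lay on the start of Sumo2, a gene of a small ubiquitin-like modifier. This peak (chr11:115536251-115536650) was centred 0.22 kb from the Sumo2 start and covered 230 bases of the window shown, including the PAR bZIP word. There are 5 coding genes between it and Grb2. On the other side the closest peak was 363.2 kb away, inside Unc13d.

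Gab1 and Gab3 lay far from any peak. Gab1 (chr8:80764431-80880519, 116.1 kb) had its nearest peak 752.7 kb away, inside Inpp4b, a phosphoinositide phosphatase gene, and the next one on its other side 3496 kb away, inside Arhgap10. The peak-free interval that holds Gab1 was 4365 kb long, and 3.26% of the 3133 intervals between neighbouring peaks were at least as long, against a median of 267.9 kb. Gab3 (chrX:74988545-75084905, 96.4 kb) had its nearest peak 744.9 kb away, inside the filamin gene Flna, in a peak-free interval of 3266 kb. Gab3 is on X, where peaks were sparse: there were 25 on X in the whole list, and 6.42% of its 966 coding genes had a peak inside or within 100 kb. Among all 21900 coding genes, 21.0% had no peak as near as Gab1 did, and 21.2% none as near as Gab3 did.

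**Figure D3:**
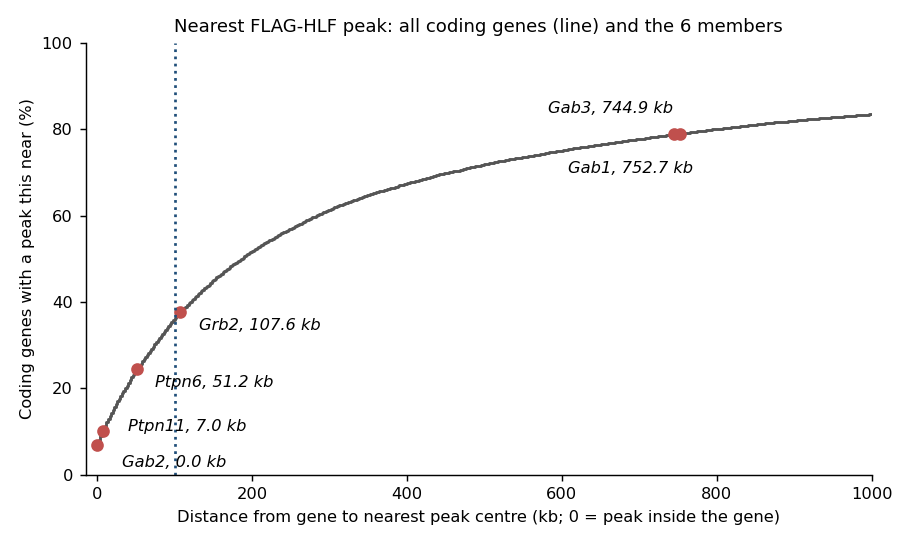
Percentage of the 21900 coding genes whose nearest peak lies within the distance on the x axis (kb, 0 for a peak inside the gene), with the 6 genes as red points and a dotted line at 100 kb. Gab2, Ptpn11 and Ptpn6 lie left of the dotted line, Grb2 just right of it, and Gab1 and Gab3 near 750 kb.

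By nearest end, 2 of the 6 (33.3%) had a peak, against 10.8% of coding genes. These are the 2 genes that were chosen for their nearest peaks, and the share with any peak within 100 kb was near the background, so neither is a result about the set. The 6 genes are also long, with a median of 80.5 kb against 17.1 kb for all coding genes, and the part of length in these shares was not tested. Within 20 kb, 2 of the 6 genes had a peak, against 15.0% of coding genes.

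Other genes of the pathway were taken as a list of 40 receptors, adaptors, kinases and effectors. Of these, 22 (55.0%) had a peak inside or within 100 kb, against the same 36.3% of coding genes, and 15 (37.5%) had a nearest peak, against 10.8%. The median was 1 peak per gene in the list and 0 over all coding genes. The list genes are longer (median 48.1 kb against 17.1 kb), and the list was drawn up with earlier results of these data known, so no excess is read from these shares. Of the 40 genes, 9 had a peak inside, against 6.82% of coding genes, and no excess is read from this either. The 22 genes shared 39 distinct peaks, of which 12 lay inside a list gene and 16 inside another coding gene. The share of all 3153 peaks that lie inside a coding gene is not given here, so these peak counts have no background and are not read as high or low.

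Among receptors, Flt3, the FLT3 ligand receptor, had 2 peaks inside, at 7.64 and 11.4 kb from an end. Sirpa, an inhibitory receptor whose tail recruits SHP-1 and SHP-2, had 1 peak inside, 1.03 kb from an end (chr2:129591875-129592274). Jak2, the kinase bound to the IL-3 receptor, had 1 inside at 19.5 kb. These 3 genes had no further peak within 100 kb. The other receptor genes of the list had no peak inside. Kit had 1 peak, 74.3 kb outside, and Il3ra and Il7r had 0 within 100 kb. Csf2rb and Csf2rb2 shared 1 peak, 47.3 kb from Csf2rb and 3.96 kb from Csf2rb2, and it was nearest to Csf2rb2.

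Among adaptors and docking proteins, Irs2, which signals through phosphoinositide 3-kinase as GAB proteins do, had 1 peak centred 0.033 kb from its end, on its start (chr8:11008763-11009162), covering 283 bases of the window shown. This was the only peak on a promoter window of its own gene in the list, for the genes with windows in the table. Grap2, a relative of GRB2 known as GADS, had 2 peaks inside, at 10.2 and 32.8 kb from an end, and 1 outside at 90.5 kb inside Tnrc6b. The ubiquitin ligase genes Cbl and Cblb had 1 peak inside each, at 42.9 and 50.8 kb from an end. Arhgap32, whose product binds GAB proteins, had 2 inside, at 17.5 and 118.3 kb. Crk, an adaptor gene, had 2 peaks within 100 kb, at 25.3 and 34.3 kb, which lay inside Myo1c and Inpp5k. Dok1, another docking protein gene, had the most, with 6 peaks within 100 kb, but none was nearest to it: 5 lay inside M1ap and 1 inside Dqx1.

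Among lipid kinases, phosphatases and lipases, Pik3r1, which encodes the p85 subunit that GAB proteins recruit, had 1 peak inside, 2.10 kb from an end (chr13:101765917-101766316), and 1 outside at 25.7 kb, both nearest to it. Inpp5d, which encodes the inositol phosphatase SHIP1, had 1 inside at 4.64 kb (chr1:87624755-87625154). Plcg1, a phospholipase C gene, had 1 peak 1.39 kb outside and another at 85.3 kb inside Top1. Pik3cd, the gene of a leukocyte catalytic subunit, had 2 peaks at 46.2 and 78.2 kb, both nearer to other genes. In the MAP kinase branch, Mapk3, which encodes ERK1, had 2, at 13.3 and 59.8 kb, of which the closer was nearest to it.

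**Figure D4:**
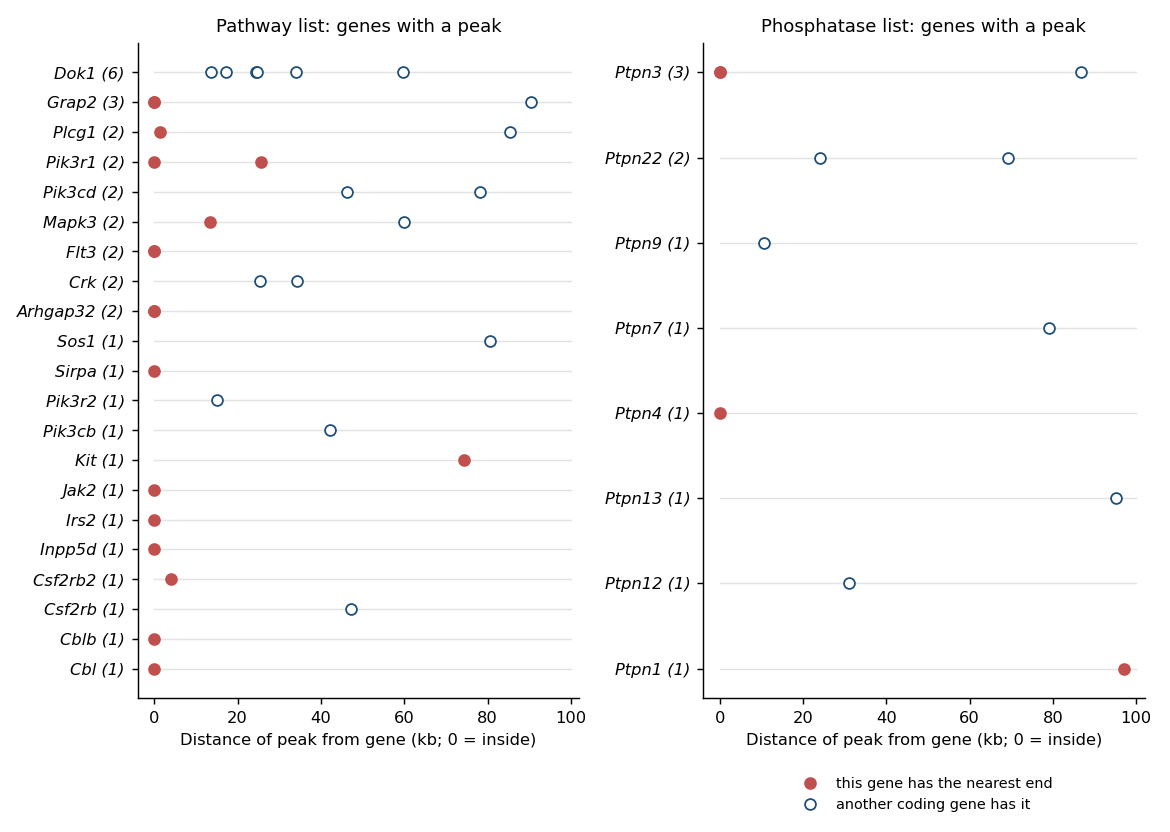
Distance of each peak from the gene in kb (0 for a peak inside) for genes of the pathway list (left) and the phosphatase list (right) with a peak within 100 kb, with the number of peaks in brackets. Filled points are peaks whose nearest coding gene end is that gene's, and open points those nearer to another gene, as for all 6 peaks of Dok1; peaks at the same distance overlap.

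A second list held 15 other non-receptor tyrosine phosphatases, the relatives of SHP-1 and SHP-2. Of these, 8 (53.3%) had a peak inside or within 100 kb and 3 (20%) a nearest peak, beside the 36.3% and 10.8% of coding genes. These genes are also longer (median 59.1 kb against 17.1 kb), and 6 of their 11 distinct peaks lay inside another coding gene. The 6 of 11 has no share over all peaks beside it and is not read as high or low. No excess is read from the shares of genes either. Ptpn3 and Ptpn4, phosphatases with FERM and PDZ domains, were the 2 of 15 with a peak inside, beside 6.82% of coding genes. Ptpn3 had 2 inside, at 32.5 and 63.6 kb from an end, and 1 outside at 86.8 kb in Epb41l4b. Ptpn4 had 1, at 29.4 kb from an end. Ptpn22, a phosphatase of lymphocytes, had 2 peaks at 24.1 and 69.2 kb, which lay inside Bcl2l15 and Hipk1.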

How the data were processed

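Per the labels, chromatin of 1 FLAG-HLF and 1 GFP-ctrl library was crosslinked with 1% formaldehyde and sonicated in 4 cycles of 30 s on and 30 s off. The tools MACS2, Bowtie2 and bedtools are listed, per the submitters' processing notes, with no role or version, and so is mm10 (GRCm38). The sources used here do not say how the peak threshold and width were set or whether a control was used. The authors' file holds peak positions only (other columns, such as a score or a p-value, are absent), and a peak list of the GFP-ctrl library was not analysed here.

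A peak's centre was its start plus 200 bases. Genes came from RefSeq GRCm38.p6 (49997 genes, 21900 coding) and starts from its promoter table, which covers 17492 coding genes. Each peak was given to the closest end of a coding gene, up to 100 kb away. The counting functions were tested on simulated data. With 1 list there is no spread between samples, and no test was run. The 6 genes, both gene lists and the motifs were chosen with earlier results of these data known. The receptor genes of the pathway list were all named. Other named genes were the 6, the genes holding or nearest to their peaks, their neighbours and up to 5 genes like Gab2. List genes were named by a rule: 2 or more peaks, a peak inside or one within 1 kb. A pathway list gene that this rule takes is counted in the totals but not reported here. Alternatives changed the distance limit, the assignment and the lines used. Python 3.11.15, numpy 2.4.6, pandas 2.3.3 and matplotlib 3.10.9 were used.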

Additional observations from a re-analysis of the deposited data

How the results depend on the processing

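Of 41 alternative values for 8 results, 28 stayed within 1.5 times the reported value and 13 did not. Some of the 28 lay at that edge. With a limit of 50 or 20 kb, the 6 genes had 6 peaks, against 9, and 2 of them had a peak, against 3. With 50 kb, 24.2% of coding genes had a peak, against 36.3%. With a limit of 50 kb, nearest peaks fell to 1 for Gab2, against 5, and to 1 for Ptpn11, against 2, and phosphatase list genes with a peak to 5, against 8. With 20 kb the phosphatase count was 3, and 15.0% of coding genes had a peak, against 36.3%. By nearest start, within 100 kb or at any distance, Ptpn11 kept 1 peak. Using only the lines after line 1576 gave 4 peaks at the 6 genes, against 9, 12 signalling genes, against 22, 2 nearest and 1 inside peak for Gab2, against 5 and 4, and 1 nearest peak for Ptpn11. By construction, a count from part of the lines cannot be higher than the full count. Without the first 315 lines, Ptpn11 had 1 nearest peak and Gab2 still 5. The alternatives for Ptpn11 were chosen after seeing the data. A stricter peak threshold was not run because the list has no score, and the nearest start was not run for Gab2 because it has no start in the table used. Depth is unknown, so a gene without a peak is not shown to be unbound. No paired analysis was possible because each arm is 1 library.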
